A study of Mus musculus with 15 samples.

Results

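The libraries described here followed cultured Emcn- bone marrow endothelial cells (BMECs) over successive passages, from P1 to P4. They were chosen by their labels as passaged Emcn- BMEC libraries, 7 of the 15 libraries of the series. Replicate 1 holds P1, P2, P3 and P4 and is batch b, and replicate 2 holds P1, P2 and P3 and is batch c. The remaining libraries (P0 cells, lung and MSC) were left out of the fit, because they share no passage step with these series. The P0 and passaged libraries also belong to different batches. The question was which genes moved gradually from passage to passage, in the same direction in both series.

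All 7 libraries carry the labels genotype WT, tissue BM, cell type BMEC and Emcn neg. According to the study's methods, whole marrow was plated on collagen or gelatin in an endothelial growth medium (EGM-2), usually the marrow of a single mouse to a dish. At confluence, cells were passaged either as whole marrow cultures or, after sorting, as Emcn- cells alone. The study does not state which of these routes gave the passaged libraries. The endothelial cells were marked by a tamoxifen-inducible Cre under the Tie2 promoter (Tie2-CreERT2) that switches on a tdTomato reporter, and Emcn- cells were taken as CD45-, tdTomato+ and Emcn-. Tie2 can also be active in some blood cells and their descendants, which a Tie2-driven reporter can then mark. In fresh marrow of this line the study detected no tdTomato in CD45+ cells or in primitive blood progenitors. It found the tdTomato+ cells of fresh tissues to be CD45- and CD31+. Endomucin (Emcn) is a surface glycoprotein of veins and sinusoids, and arterial endothelium largely lacks it. The labels give no age for these mice, and the label WT does not name the reporter line. The study's methods give an age of several months for its mice in general. The labels do not say whether the libraries of a replicate are successive passages of a single culture, nor whether cells were sorted before or after passaging. Batch and culture cannot be told apart, P4 was measured in replicate 1 only, and p-values measure the spread between these libraries.

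Primary cells lose the capacity to divide as they are passaged. The response known as senescence runs through the kinase inhibitors encoded by Cdkn2a and Cdkn1a and through p53, and senescent cells often release cytokines, proteases and growth factor binding proteins. Cultures started from whole marrow also carry other adherent cells such as macrophages and fibroblasts.

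Levels are given as CPM, read counts relative to the library total, scaled by the trimmed mean of M values (TMM). Total counts ran from 27017659 to 36368542 per library, so that 3 counts corresponded to 0.0825 to 0.111 CPM. The share of counts from mitochondrially encoded genes was 6.32% to 9% in replicate 1 and 5.16% to 5.99% in replicate 2. A slope is the change in log2 CPM per passage, from an edgeR quasi-likelihood fit over the 7 libraries with batch as a block, with its standard error and an adjusted p over the 16690 genes tested. A gene rose or fell if its adjusted p was under 0.05, and did so steadily if all 5 successive steps (3 in replicate 1 and 2 in replicate 2) also went the same way. In bulk RNA, fewer cells of a type and less RNA per cell cannot be told apart.

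Of the 16690 genes tested, 1910 rose with passage (11.4%) and 1797 fell (10.8%), 22.2% in either direction. Of these, 750 rose steadily (4.49% of the genes tested) and 722 fell steadily (4.33%). The median slope of all genes tested was -0.00256 log2 per passage. Few of the slopes were large, since 489 genes rose (2.93%) and 290 fell (1.74%) by at least 0.5 log2 per passage. The test of passage as a factor found 3082 genes that differed between some passages (18.5%), and 698 of them were not called for the linear trend (4.18%). The counts depended on single libraries. Without P1 of replicate 1, 42 genes rose and 47 fell. Without P1 of replicate 2, 774 rose and 809 fell, and without P3 of replicate 2, 465 rose and 516 fell. The steady rises and falls were 42 and 46 without P1 of replicate 1 and 351 and 367 without P3 of replicate 2. They were 1504 and 1453 without P3, and 2028 and 1896 without P4 of replicate 1, where fewer steps define them. Genes that differed between some passages numbered 1142 and 1163 without P2 of replicate 1 or 2 and 5180 without P1 of replicate 2.

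The series share no library, so each could be set beside the other. In replicate 1, 543 genes rose at all 3 steps and by at least 1 log2 in all, among them Perp, Ccn2, Col12a1 and Col15a1. In replicate 2, 385 of these 543 (70.9%) rose at both steps, against 26.7% of all genes tested, and 14 fell at both. Another 391 genes, among them C1qb, Lyz2, Mrc1 and Apoe, fell in the same way in replicate 1. Of these, 262 (67%) fell at both steps in replicate 2, against 24.9% of all genes, and 12 rose at both. In the opposite direction, 847 genes rose at both steps and by at least 1 log2 in replicate 2, and 260 of them (30.7%) rose at all 3 steps of replicate 1, against 9.45% of all genes. Of 566 genes that fell so in replicate 2, 166 (29.3%) fell at all 3 steps of replicate 1, against 10.5% of all genes. Across the 16690 genes, the slopes of replicate 1 and of replicate 2 had a Pearson correlation of 0.577 and a Spearman correlation of 0.627, given as a description because genes are not independent replicates. By the test of the difference in slope between the series (edgeR interaction term), 0 genes passed, 541 (3.24%) had an unadjusted p under 0.05, and DESeq2 called 17.

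**Figure D1:**
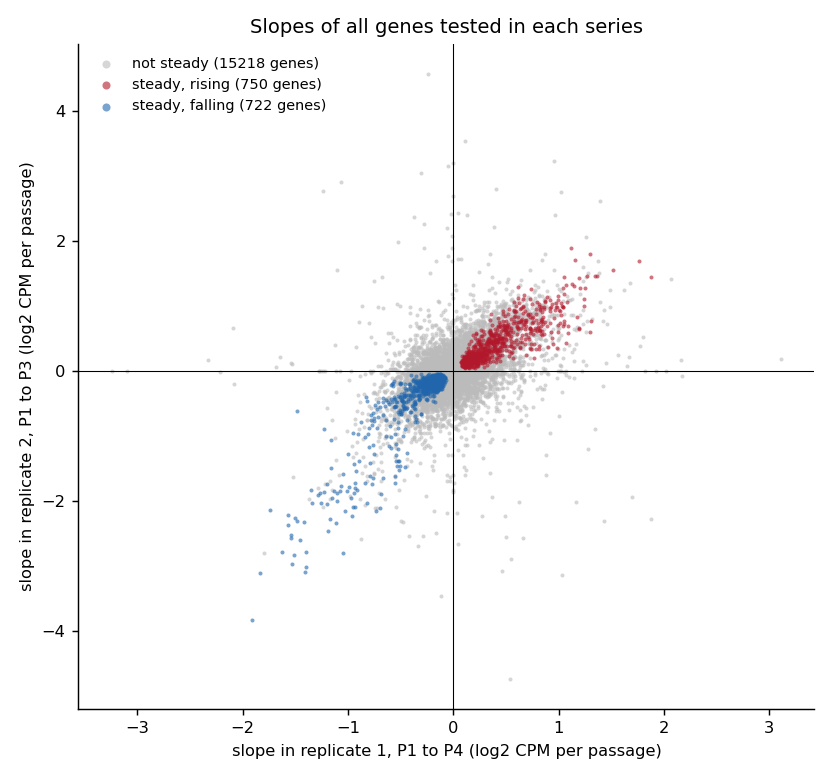
Slope in replicate 2 (P1 to P3, log2 CPM per passage) against slope in replicate 1 (P1 to P4, log2 CPM per passage), 1 point per gene tested. Red points are the 750 genes that rose steadily, blue points the 722 that fell steadily, which lie in the upper right and lower left quadrants by their definition, and grey points the others.

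The steady genes moved most at the first step. For the 750 rising genes the median step, averaged over the series, was 0.43 log2 from P1 to P2 and 0.26 from P2 to P3, and the step from P3 to P4 in replicate 1 was 0.12. The corresponding steps of the 722 falling genes were -0.29, -0.22 and -0.12 log2. The first step was larger than the second in 543 of the rising genes (72.4%) and in 485 of the falling ones (67.2%). Among all genes tested, the number that changed at least 2-fold was 1364, 845 and 633 at the successive steps of replicate 1 and 1010 and 751 at those of replicate 2. In the whole table, too, fewer genes changed 2-fold at each later step. The median absolute step of all genes tested was 0.222, 0.202 and 0.132 log2 in replicate 1 and 0.186 and 0.162 in replicate 2. A larger first step was thus not particular to the steady genes.

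Cdkn2a (chr4:89274471-89294653, minus strand, GRCm38) encodes the cell cycle inhibitors p16Ink4a and p19Arf, which gene-level counts do not separate. It was at 59.8, 105, 154 and 133 CPM from P1 to P4 in replicate 1 and 60.5, 83.00 and 118 CPM from P1 to P3 in replicate 2. Both P1 libraries were the lowest of their series and the values at P3 did not overlap with them, while P4 was below P3. Cdkn2a rose (0.43 ± 0.08, adjusted p = 0.0131), but not at every step. Its adjusted p was 0.151 without P1 of replicate 1 and 0.0556 without P3 of replicate 2.

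Pdgfra (chr5:75152292-75198215, plus strand) encodes the alpha receptor of platelet-derived growth factor and is a general marker of fibroblasts and stromal cells. It was read at 1463, 984, 699 and 799 CPM from P1 to P4 in replicate 1 and 1261, 979 and 708 CPM from P1 to P3 in replicate 2. It was lowest at P3 in both series and slightly higher again at P4. Pdgfra fell (-0.34 ± 0.06, adjusted p = 0.0135) while remaining an abundant transcript in every library. Its adjusted p was 0.176 without P1 of replicate 1 and 0.0574 without P3 of replicate 2.

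C1qb (chr4:136880129-136886187, minus strand) encodes a chain of complement C1q, a product of macrophages. Its level was 5.35, 2.17, 0.721 and 0.140 CPM from P1 to P4 in replicate 1 and 15.2, 2.49 and 0.510 CPM from P1 to P3 in replicate 2. Each step was down in both series, and P1 of replicate 2 was the highest library. C1qb fell steadily (-1.94 ± 0.17, adjusted p = 0.00386). Lyz2 (chr10:117277331-117282321, minus strand), the lysozyme of macrophages and granulocytes, was at 50.7, 25.3, 9.31 and 5.29 CPM from P1 to P4 in replicate 1 and 173, 28.8 and 6.74 CPM from P1 to P3 in replicate 2. Here too every step was down and the P1 libraries were the highest of each series (-1.51 ± 0.21, adjusted p = 0.00748). The test called the fall of C1qb and of Lyz2 in every alternative fit.

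**Figure D2:**
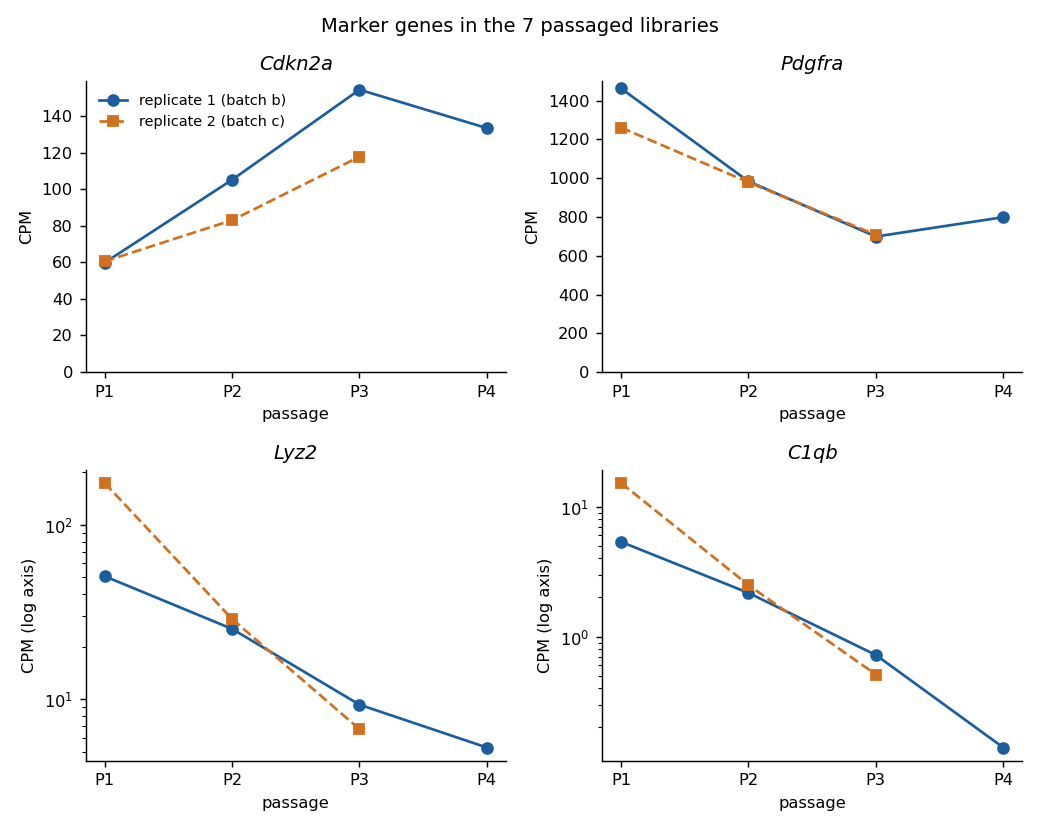
Level (CPM) of Cdkn2a and Pdgfra on linear axes from 0 and of Lyz2 and C1qb on log axes, against passage, 1 point per library. Blue circles with solid lines are replicate 1 and orange squares with dashed lines replicate 2. Lyz2 and C1qb drop at every step, whereas Cdkn2a and Pdgfra turn between P3 and P4.

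Of the 750 steady rises, 453 had at least 10 CPM in both P3 libraries and the P4 library and no predicted or clone name, and the largest slope of these was that of Perp, which encodes a membrane protein of desmosomes induced by p53. Perp measured 1.95, 16.04, 44.6 and 47.4 CPM from P1 to P4 in replicate 1 and 2.85, 10.5 and 25.04 CPM from P1 to P3 in replicate 2, a slope of 1.44 ± 0.23, adjusted p = 0.00906. No library of P3 or P4 overlapped with P1. Ccn2, connective tissue growth factor, a secreted matrix-associated protein, followed at 22.2, 111, 245 and 272 CPM from P1 to P4 in replicate 1 and 40.1, 136 and 288 CPM from P1 to P3 in replicate 2 (1.26 ± 0.18, adjusted p = 0.00759). The P3 libraries of both series were close to each other and far above P1. Col12a1, a collagen found on the surface of fibrils, reached 196, 507, 988 and 1168 CPM from P1 to P4 in replicate 1 and 235, 537 and 1042 CPM from P1 to P3 in replicate 2 (0.94 ± 0.10, adjusted p = 0.00452), with each passage above the one before.

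Enzymes of small molecule metabolism were also among the 12 largest steady rises of abundant genes. Cyp26b1, which breaks down retinoic acid, was at 12.7, 43.8, 83.1 and 109 CPM in replicate 1 and 9.70, 25.7 and 31.9 CPM in replicate 2 (0.95 ± 0.13, adjusted p = 0.00701). Cyp4b1, a cytochrome P450, stood at 3.37, 15.7, 25.5 and 35.6 CPM in replicate 1 and 5.07, 14.3 and 22.3 CPM in replicate 2 (1.02 ± 0.14, adjusted p = 0.00750). In both genes the last passage of each series was its highest library. Ces2e, a carboxylesterase, rose by 1.21 log2 per passage. Ereg, which encodes the epidermal growth factor receptor ligand epiregulin, had the smallest error of the 12, at 6.83, 10.8, 22.03 and 42.4 CPM in replicate 1 and 9.36, 14.7 and 24.4 CPM in replicate 2 (0.84 ± 0.05, adjusted p = 0.00181). Ereg was up at each step in both series, and P4 was its highest library. Others were Tenm1, a teneurin (1.15), Rassf4, of the Ras association family (0.97), Btg2, an antiproliferative p53 target (0.86), and Oas2, an oligoadenylate synthetase induced by interferon (0.85).

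Of the 722 steady falls, 430 had at least 10 CPM in both P1 libraries and no predicted or clone name. The largest slopes of these were headed by Lyz2 and Mrc1, the mannose receptor of macrophages and sinusoidal endothelium. Mrc1 was at 10.3, 5.75, 1.90 and 0.980 CPM from P1 to P4 in replicate 1 and 17.1, 3.02 and 1.09 CPM from P1 to P3 in replicate 2 (-1.44 ± 0.17, adjusted p = 0.00525). As with Lyz2, the P1 library of replicate 2 was the highest and the P3 libraries were close together. Apoe, apolipoprotein E, which both macrophages and stromal cells make, was at 1005, 515, 257 and 242 CPM in replicate 1 and 1125, 685 and 419.7 CPM in replicate 2 (-0.71 ± 0.07, adjusted p = 0.00414). Apoe stayed among the more abundant transcripts after a fall at every step.

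Others among the 12 largest of these 430 steady falls were those of Sfrp2, Mdk and Osr2. Sfrp2, a secreted modulator of Wnt signalling, stood at 119, 39.4, 25.3 and 20.1 CPM in replicate 1 and 72.4, 52.5 and 42.02 CPM in replicate 2 (-0.73 ± 0.11, adjusted p = 0.00891). Mdk, the growth factor midkine, was at 36.2, 11.98, 7.47 and 6.89 CPM in replicate 1 and 41.5, 20.5 and 16.3 CPM in replicate 2 (-0.78 ± 0.11, adjusted p = 0.00726), and Osr2, a zinc finger transcription factor of skeletal and mesenchymal development, at 13.8, 6.86, 4.07 and 3.70 CPM in replicate 1 and 16.1, 8.56 and 4.01 CPM in replicate 2 (-0.75 ± 0.09, adjusted p = 0.00525). For each of the 3, both P1 libraries lay above all later ones. Mmp11, a matrix metalloproteinase of stromal cells, fell by 0.76 log2 per passage, Cldn11, a tight junction claudin, by 0.75, and Crispld2, a secreted protein, by 0.79. Srpx2, a secreted sushi-repeat protein, Ldb2, which binds LIM-domain proteins, and Crocc2, related to the ciliary rootlet protein, had slopes of -0.71, -0.86 and -1.08.

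**Figure D3:**
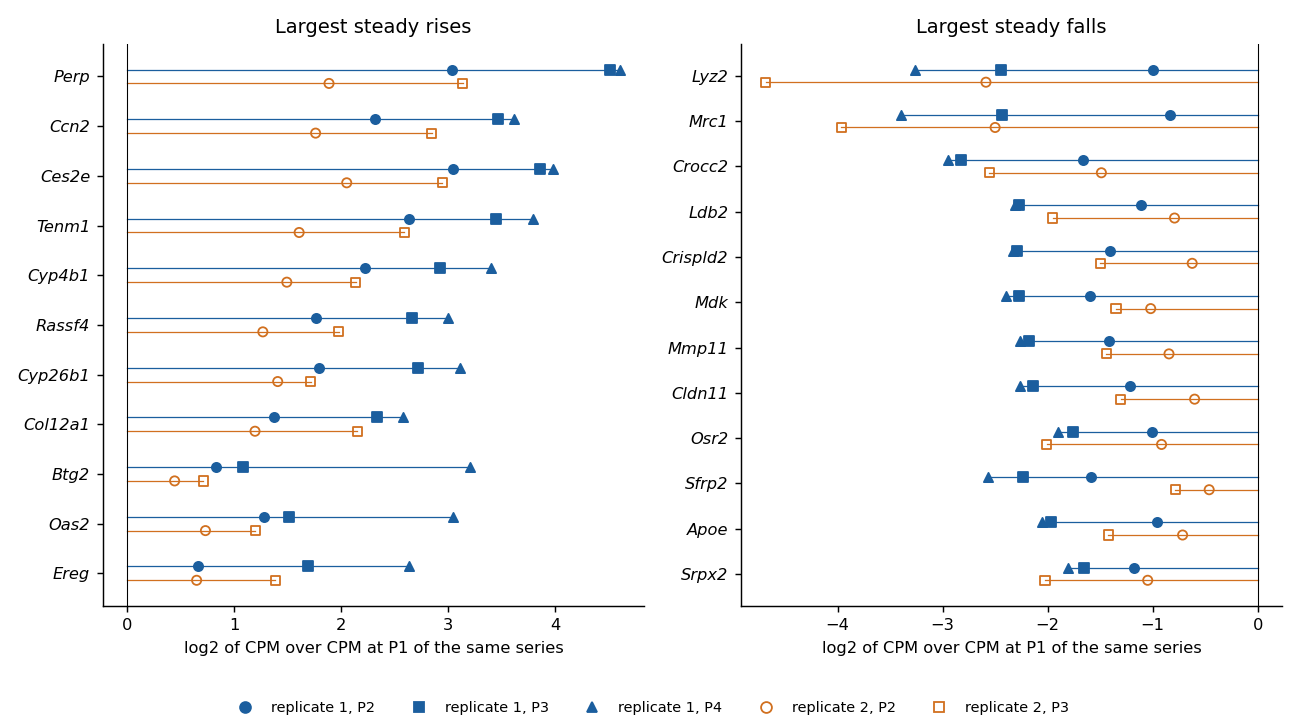
Level relative to P1 of the same series (log2 ratio of CPM) for 11 of the 12 abundant genes with the largest steady rises and the 12 with the largest steady falls. Circles are P2, squares P3 and triangles P4, blue for replicate 1 and orange for replicate 2; within a series the symbols move away from 0 with each passage.

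Among 12 genes of cell cycle arrest and the p53 circuit tested, 5 rose and 1 fell (against 11.4% and 10.8% of all genes tested). Cdkn1a, the p53-induced inhibitor p21, was at 113, 143, 208 and 253 CPM from P1 to P4 in replicate 1 and 142, 181 and 215 CPM from P1 to P3 in replicate 2. It rose at each of the 5 steps (0.37 ± 0.03, adjusted p = 0.00386). Mdm2, the ubiquitin ligase that limits p53 and is itself a p53 target, was at 115, 173, 239 and 302 CPM in replicate 1 and 106, 131 and 164 CPM in replicate 2 and also rose steadily (0.42 ± 0.04, adjusted p = 0.00386). The retinoblastoma gene Rb1 and its relative Rbl1 each rose by 0.17 log2 per passage. In the other direction, Cdkn1b, the inhibitor p27, was at 88.5, 55.00, 30.2 and 34.8 CPM in replicate 1 and 72.03, 68.1 and 46.4 CPM in replicate 2 (-0.44 ± 0.08, adjusted p = 0.0123), with the higher levels at P1. Cdkn2b, the neighbour of Cdkn2a that encodes p15, was between 89.95 and 122 CPM and not called (0.04 ± 0.05, adjusted p = 0.597), nor was Trp53, which encodes p53 (0.04 ± 0.03, adjusted p = 0.381). Arrest genes that rose numbered 2 without P1 of replicate 1 or P3 of replicate 2 and 3 without P1 of replicate 2.

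The p53 targets held a larger share of rising genes than the table as a whole. Cdkn1a and Mdm2, described above, are in this list too, so the counts of both lists overlap. Of 20 tested, 15 rose (against 11.4% of all genes tested), 8 of them steadily, and 0 fell, with a median slope of 0.32 log2 per passage against -0.00256 for all genes. Gdf15, a stress-induced cytokine of the TGF-beta family, was at 0.532, 1.53, 5.48 and 5.51 CPM in replicate 1 and 1.75, 1.33 and 2.19 CPM in replicate 2 (0.83 ± 0.24, adjusted p = 0.0419). Pmaip1, which encodes the cell death protein Noxa, was at 20.6, 50.9, 82.3 and 84.7 CPM in replicate 1 and 13.3, 25.6 and 39.98 CPM in replicate 2 (0.71 ± 0.10, adjusted p = 0.00744). Pmaip1 was up at every step, while Gdf15 was lowest at P2 in replicate 2. Btg2 was at 20.4, 36.3, 43.02 and 187 CPM in replicate 1 and 27.4, 37.2 and 44.9 CPM in replicate 2 (0.86 ± 0.15, adjusted p = 0.0121), and most of its rise in replicate 1 came at P4. Plk2, a kinase, and Phlda3, a repressor of Akt, rose steadily by 0.62 and 0.43. The median of the 20 genes relative to P1 was 0.50, 0.84 and 0.90 log2 at P2, P3 and P4 of replicate 1 and 0.33 and 0.62 at P2 and P3 of replicate 2. Targets of p53 that rose numbered 4 without P1 of replicate 1, 8 without P3 of replicate 2 and 9 without P1 of replicate 2.

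**Figure D4:**
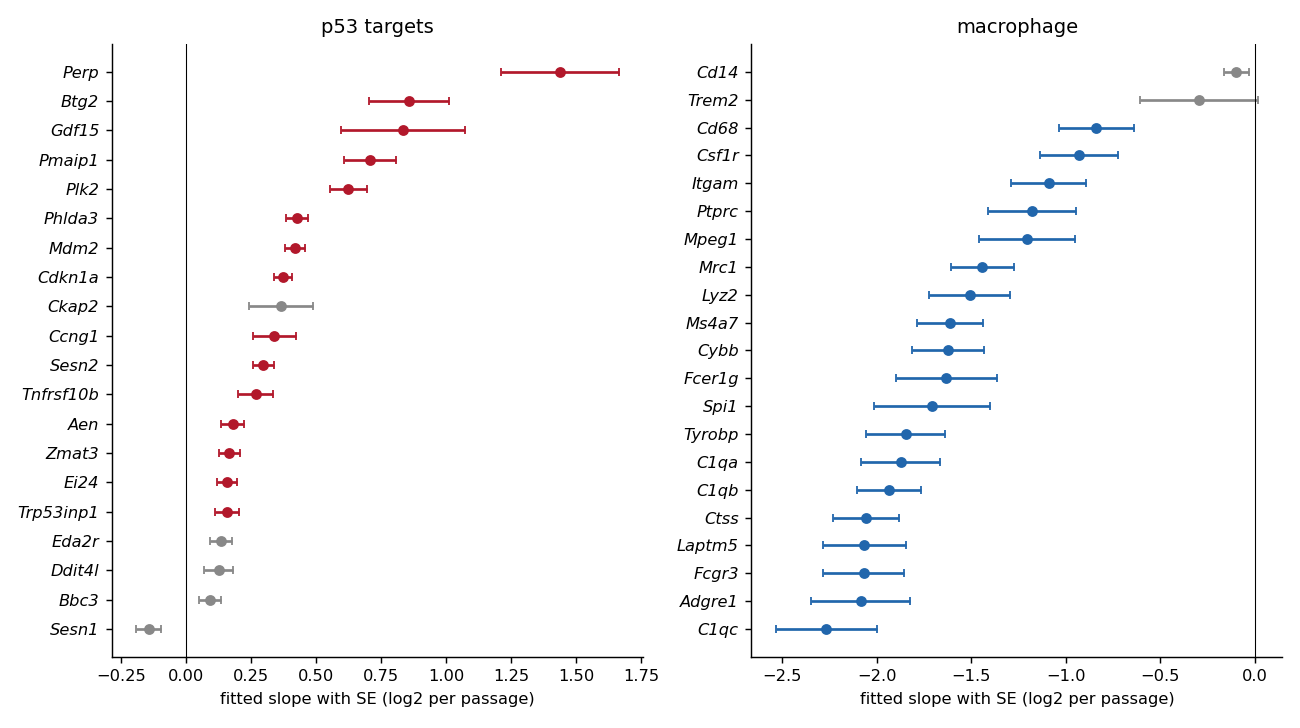
Slope (log2 CPM per passage) with its standard error for each tested p53 target and each tested macrophage marker. Red points rose, blue points fell and grey points were not called; 15 of 20 p53 targets lie in red and 19 of 21 macrophage markers in blue.

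Secreted factors associated with senescence moved both ways, with 7 of 22 tested rising and 6 falling, out of 31 listed (against 11.4% and 10.8% of all genes tested rising and falling). Il6, Il1a and Il1b, which encode the inflammatory cytokines most often named in this group, did not pass the filter on low counts. Lif, a cytokine of the interleukin 6 family, was at 0.621, 1.32, 2.54 and 4.06 CPM in replicate 1 and 0.548, 1.23 and 1.68 CPM in replicate 2 (0.86 ± 0.10, adjusted p = 0.00525). Lif rose at every step, as did the chemokine Cxcl1 (0.80) and the metalloproteinase Mmp3 (0.68). Of the IGF binding proteins of the list, Igfbp3, Igfbp4 and Igfbp5 fell and Igfbp7 rose, with Igfbp3 at 3416, 2067, 977 and 1212 CPM in replicate 1 and 3301, 2514 and 1544 CPM in replicate 2 (-0.54 ± 0.09, adjusted p = 0.0105). Igfbp3 was highest at P1 in both series. Igfbp4, Igfbp5 and Igfbp7 had slopes of -0.48, -0.42 and 0.11. Mmp13, a collagenase, fell by 1.19, and Ccl3, a chemokine of macrophages, fell from 0.532 and 1.41 CPM at P1 to 0 in the last passage of both series. Secreted factors that rose numbered 2 without P1 of replicate 1, and those that fell 1 without P1 of either replicate and 2 without P3 of replicate 2.

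Genes of mitosis differed mainly between P1 and the later passages. Of 30 tested, 3 rose by the linear term (Ccna2, Ttk and Cdc20; 11.4% of all genes tested did) and 0 fell, with 21 rising by DESeq2 and 24 by limma. Of the others, 26 differed between passages by the test of passage as a factor (against 4.18% of all genes tested). Mki67, the proliferation antigen Ki-67, was at 14.7, 61.8, 54.1 and 47.3 CPM from P1 to P4 in replicate 1 and 11.9, 32.7 and 47.3 CPM from P1 to P3 in replicate 2. Both P1 libraries were low and all later ones high, with an adjusted p of 0.0964 for the trend and 0.00466 for passage as a factor. Top2a, the topoisomerase of dividing cells, was at 25.6, 74.2, 63.4 and 65.1 CPM in replicate 1 and 21.7, 45.6 and 52.05 CPM in replicate 2 (0.42 ± 0.15, adjusted p = 0.0805; 0.00444 as a factor). Cdc20, an activator of the anaphase-promoting complex, was at 4.49, 11.2, 12.5 and 13.4 CPM in replicate 1 and 4.05, 9.35 and 10.9 CPM in replicate 2 and rose steadily (0.52 ± 0.12, adjusted p = 0.0248). The median of the 30 genes relative to P1 was 1.68, 1.53 and 1.49 log2 at P2, P3 and P4 of replicate 1 and 1.21 and 1.5 at P2 and P3 of replicate 2. Mitotic genes that rose numbered 0 without P1 of replicate 1 or P1 or P3 of replicate 2, 28 without P4 and 30 without P2 of replicate 1.

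Of 30 S phase genes tested, 10 rose and 1 fell (against 11.4% and 10.8% of all genes tested). Their median relative to P1 was 0.44, 0.57 and 0.43 log2 at P2, P3 and P4 of replicate 1 and 0.23 and 0.42 at P2 and P3 of replicate 2. Among those that rose was Rrm2, the regulatory subunit of ribonucleotide reductase, at 12.8, 44.2, 82.6 and 73.3 CPM in replicate 1 and 7.34, 17.6 and 30.03 CPM in replicate 2 (0.88 ± 0.16, adjusted p = 0.0121). Rrm2 was lowest at P1 in both series. E2f8, a transcription factor of the cell cycle (0.79), Clspn, of the replication checkpoint (0.56), and Uhrf1, which maintains DNA methylation (0.53), also rose. Mcm7, a subunit of the replicative helicase, fell (-0.13 ± 0.03, adjusted p = 0.0188). S phase genes that rose numbered 0 without P1 of replicate 1, 1 without P3 of replicate 2, 2 without P1 of replicate 2 and 3 without P2 of replicate 2.

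Sequence elements are known from promoters of genes active in G2 and mitosis: the CHR element (TTTGAA), to which the DREAM and MuvB complexes bind, and the CCAAT box, bound by NF-Y. The 250 bases before the transcription start are shown for Cdc20 (chr4:118437344-118437593, minus strand) and Top2a (chr11:99024190-99024439, minus strand), as a steady and a stepwise member of the list, from RefSeq on GRCm38.p6. They are written along the gene's strand, 5′ to 3′, with both elements in capitals on either strand. On the other strand the CHR element reads TTCAAA and the CCAAT box ATTGG.
Cdc20: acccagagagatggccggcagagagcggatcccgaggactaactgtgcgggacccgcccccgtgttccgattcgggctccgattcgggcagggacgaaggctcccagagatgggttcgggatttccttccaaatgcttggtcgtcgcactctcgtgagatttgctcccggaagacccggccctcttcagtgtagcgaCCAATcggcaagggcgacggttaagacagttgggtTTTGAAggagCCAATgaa
Top2a: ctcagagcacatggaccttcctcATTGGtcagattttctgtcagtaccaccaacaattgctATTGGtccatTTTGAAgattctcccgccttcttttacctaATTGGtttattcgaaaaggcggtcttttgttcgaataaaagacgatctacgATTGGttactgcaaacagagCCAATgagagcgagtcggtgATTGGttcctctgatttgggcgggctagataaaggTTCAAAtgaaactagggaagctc
In Cdc20 the CHR element began 18 bases before the start and the CCAAT boxes 53 and 8 bases before it. Top2a held CHR elements that began 179 and 23 bases before the start and 6 CCAAT boxes. Of the 25 mitotic genes with a promoter in RefSeq, 10 (40%) held a CHR element and 21 (84%) a CCAAT box in this window, against 13.4% and 40.4% of the 11426 genes tested that had a promoter. For the 23 S phase genes the shares were 17.4% and 73.9%.

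Macrophage markers fell together. Of 21 tested, 19 fell (against 10.8% of all genes tested), 17 of them steadily, and 0 rose, with a median slope of -1.62 log2 per passage. The summed level of the list was 127, 64.8, 27.5 and 17.7 CPM in replicate 1 and 353, 63.5 and 20.1 CPM in replicate 2. C1qc, another C1q chain, was at 4.58, 1.62, 0.606 and 0.0280 CPM from P1 to P4 in replicate 1 and 12.6, 1.72 and 0.109 CPM from P1 to P3 in replicate 2 (-2.27 ± 0.27, adjusted p = 0.00525). Adgre1, which encodes F4/80, was at 2.22, 1.32, 0.115 and 0.0840 CPM in replicate 1 and 5.93, 0.663 and 0.182 CPM in replicate 2 (-2.08 ± 0.26, adjusted p = 0.00590). Both were under 1 CPM in the last passage of each series, where their slopes rest on few counts. Csf1r, the receptor for the growth factor of macrophages, was at 1.89, 1.08, 0.807 and 0.532 CPM in replicate 1 and 4.90, 1.16 and 0.474 CPM in replicate 2 (-0.93 ± 0.21, adjusted p = 0.0209). Fcgr3, an immunoglobulin receptor, and Laptm5, a lysosomal protein of blood cells, had slopes of -2.07 and -2.07. Ptprc, which encodes the CD45 used to remove blood cells, was at 0.887, 0.481, 0.173 and 0.196 CPM in replicate 1 and 2.47, 0.531 and 0.182 CPM in replicate 2 (-1.18 ± 0.23, adjusted p = 0.0150). Cd74, Aif1 and Cx3cr1, also of the list, did not pass the filter on low counts. Cd14 and Trem2 were not called (-0.10 ± 0.07, adjusted p = 0.312 and -0.30 ± 0.31, adjusted p = 0.519). The number of members falling was 13 to 19 when any single library was left out. The share of macrophage RNA moved with passage together with the other gene groups described here, and its part in their changes was not tested.

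Complement genes followed in part the same transcripts. Of 22 tested, 8 fell and 1 rose (against 10.8% and 11.4% of all genes tested), and 4 of those that fell (C1qa, C1qb, C1qc and C5ar1, the C5a receptor) also mark macrophages or other myeloid cells. C3, the central complement component, which stromal cells make too, was at 2297, 1506, 627 and 1061 CPM in replicate 1 and 2279, 1951 and 857 CPM in replicate 2 (-0.49 ± 0.14, adjusted p = 0.0376), and was higher at P4 than at P3. The genes of the proteases C1r and C1s, C1ra and C1s1, fell by 0.39 and 0.37, whereas Cd59a, which protects cells from complement, rose steadily (0.51 ± 0.06, adjusted p = 0.00525). Of the 6 tested markers of other blood cells, 1 rose and 0 fell, and their summed level was between 4.37 and 5.55 CPM in every library. Complement genes that fell numbered 4 without P1 of replicate 1 or P3 of replicate 2, 5 without P1 of replicate 2 and 14 without P4.

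The endothelial label was checked against its markers. Cdh5, which encodes VE-cadherin, the adhesion protein that defines endothelial junctions, was at 1.12, 0.421, 0.0577 and 0.224 CPM from P1 to P4 in replicate 1 and 2.23, 0.497 and 0.182 CPM from P1 to P3 in replicate 2, and fell (-1.25 ± 0.27, adjusted p = 0.0198). Pecam1, which encodes CD31, was between 10.5 and 14.2 CPM and not called (-0.08 ± 0.05, adjusted p = 0.295), and Vwf, von Willebrand factor, was between 0.928 and 1.62 CPM. Sox17, Sox7, Sox18, Esam, Robo4 and Nos3 did not pass the filter on low counts, and Sox17 had 0 counts in every library. Per kilobase of exon, Cdh5 was at 0.0137 to 0.530, Pecam1 at 1.69 to 2.28 and Vwf at 0.0578 to 0.101 CPM per kb, while Pdgfra was at 69.7 to 146 and the fibroblast proteoglycan gene Dcn at 79.3 to 268. Cdh5 thus came near the lower end of detection by P3, and Vwf and Pecam1 were low, while stromal transcripts were abundant in all 7 libraries. These levels go against the label BMEC, which is used here as the name of the libraries. Emcn itself was between 0.911 and 3.79 CPM in these Emcn- libraries.

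Some other endothelial genes, such as Eng and Tek, were better expressed. Of 20 endothelial genes tested 6 rose and 5 fell (against 11.4% and 10.8% of all genes tested). Eng, endoglin, a TGF-beta co-receptor found on endothelial and stromal cells, was at 71.9, 91.6, 120.0 and 126 CPM in replicate 1 and 72.7, 89.4 and 102 CPM in replicate 2 and rose steadily (0.27 ± 0.03, adjusted p = 0.00581). Tek, which encodes the Tie2 receptor whose promoter drives the Cre, was at 40.05, 26.1, 15.98 and 19.5 CPM in replicate 1 and 28.8, 20.03 and 14.7 CPM in replicate 2 (-0.41 ± 0.07, adjusted p = 0.0121). It was highest at P1 in both series. Kdr and Flt4, which encode VEGF receptors 2 and 3, rose by 0.38 and 0.57, Flt4 from a low level (0.201 to 0.711 CPM per kb). Cldn5, an endothelial claudin, fell steadily, but from no more than 0.411 CPM to 0 at P4, and Mmrn1, multimerin, fell too, though not at every step (-0.90). The summed level of the list stayed between 251 and 319 CPM. Endothelial genes that rose numbered 0 without P1 of replicate 1, 2 without P1 or P3 of replicate 2 and 3 without P2 of replicate 2, and those that fell 0 without P1 of replicate 1, 2 without P1 of replicate 2 and 3 without P3 of replicate 2.

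Genes of arterial, sinusoidal, tip and stalk endothelium were taken from the lists that the study compiled from publications, and are read against 11.4% of all genes tested that rose and 10.8% that fell. Of 15 arterial genes tested, 8 rose and 2 fell, with Cav1, the protein of caveolae, at 212, 355, 479.8 and 524 CPM in replicate 1 and 194, 227 and 259.5 CPM in replicate 2 (0.37 ± 0.06, adjusted p = 0.0113). Cav1 was highest in the last passages. Fbln2, a matrix protein, Sparcl1 and Notch4 had slopes of 0.35, -0.34 and 0.30. Fbln2 is also counted among the fibroblast and mesenchymal markers, and Notch4 was not called without P4 (0.25, adjusted p = 0.0960). Of 15 sinusoidal genes, 4 rose and 6 fell, with Mrc1 falling and the Notch ligand gene Jag2 rising (0.80 ± 0.16, adjusted p = 0.0153). Among the 21 tip genes 4 rose and 9 fell. The falls were led by Cldn5 (at most 0.291 CPM per kb), the chemokine receptor gene Cxcr4 (-1.31 ± 0.21, adjusted p = 0.00936, at most 1.82 CPM) and the endothelin receptor gene Ednrb (-1.04 ± 0.17, adjusted p = 0.0105). Cxcr4 fell at every step and was highest at P1 of replicate 2, as were C1qb and Mrc1. Whether its fall was part of the macrophage change was not tested. Among 8 stalk genes 1 rose, Aldh2 (0.12), and 0 fell. Arterial genes that rose numbered 0 without P1 of replicate 1, 2 without P3 of replicate 2, 4 without P1 of replicate 2 or P4 and 5 without P2 of either replicate. Sinusoidal genes that rose numbered 0 without P1 of replicate 1, and those that fell 1 without P1 of replicate 1, 2 without P1 of replicate 2 and 3 without P3 of replicate 2. Tip genes that rose numbered 0 without P1 of replicate 1, 1 without P3 of replicate 2 and 2 without P2 of replicate 2 or P4, and those that fell 0 without P1 of replicate 1, 4 without P1 of replicate 2 and 5 without P3 of replicate 2.

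Of 21 Notch pathway genes tested, 7 rose and 4 fell (against 11.4% and 10.8% of all genes tested). Hes1, a repressor that Notch signalling induces, was at 1.18, 2.80, 10.7 and 12.1 CPM from P1 to P4 in replicate 1 and 1.92, 2.19 and 6.23 CPM from P1 to P3 in replicate 2. It rose at each step (1.09 ± 0.16, adjusted p = 0.00781). Notch3, the receptor of mural cells, was at 28.5, 54.9, 74.9 and 74.8 CPM in replicate 1 and 25.7, 46.7 and 62.03 CPM in replicate 2 (0.51 ± 0.08, adjusted p = 0.00966) and the ligand gene Jag2 at 0.443, 0.933, 2.16 and 1.85 CPM in replicate 1 and 0.411, 0.995 and 1.75 CPM in replicate 2. The other targets of the pathway that were tested, Hey1, Hey2 and Nrarp, were not called, with slopes of 0.42 ± 0.19, 0.24 ± 0.21 and 0.56 ± 0.26. Rbpj, which encodes the DNA-binding partner of Notch, fell (-0.25 ± 0.05, adjusted p = 0.0150), and so did Dtx4, a regulator of receptor trafficking (-0.49 ± 0.05, adjusted p = 0.00386). Notch pathway genes that rose numbered 0 without P1 of replicate 1, 2 without P3 of replicate 2 and 3 without P1 of replicate 2, and those that fell 1 without P1 of replicate 1.

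Fibroblast and mesenchymal markers stayed high and moved in both directions, with 4 of 23 tested rising and 4 falling (against 11.4% and 10.8% of all genes tested). Dcn, decorin, was at 1563, 871, 463 and 557 CPM from P1 to P4 in replicate 1 and 1557, 1064 and 566 CPM from P1 to P3 in replicate 2 (-0.58 ± 0.09, adjusted p = 0.00966). Fap, fibroblast activation protein, was at 32.5, 13.9, 9.80 and 11.3 CPM in replicate 1 and 44.1, 25.8 and 19.5 CPM in replicate 2 (-0.54 ± 0.10, adjusted p = 0.0121). The highest value of each was at P1 in both series. S100a4, a calcium-binding protein, and Thy1, a surface glycoprotein, rose by 0.64 and 0.42. Of 14 mural cell genes, 6 rose and 1 fell, beside the same background. Acta2, the actin of smooth muscle, was at 12.1, 9.75, 20.8 and 34.6 CPM in replicate 1 and 9.53, 6.83 and 16.3 CPM in replicate 2 (0.51 ± 0.12, adjusted p = 0.0256), and Des, desmin, at 2.66, 5.84, 6.63 and 9.77 CPM in replicate 1 and 2.67, 4.51 and 3.64 CPM in replicate 2 (0.48 ± 0.11, adjusted p = 0.0235). Acta2 was lowest at P2 in both series. Without P4 neither Acta2 nor Des was called (0.395, adjusted p = 0.0940, and 0.439, adjusted p = 0.0724). Fibroblast genes that rose numbered 0 without P1 of replicate 1 and 2 without P1 or P3 of replicate 2, and those that fell 0 without P1 of replicate 1 and 2 without P3 of replicate 2. Mural genes that rose numbered 0 without P1 of replicate 1 and 4 without P3 of replicate 2 or P4.

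Lineage genes of bone, cartilage and fat were mostly not called. Among 14 osteolineage genes 2 rose and 2 fell (against 11.4% and 10.8% of all genes tested), and 0 did either without P1 of replicate 1. They included Spp1, osteopontin (0.68 ± 0.13, adjusted p = 0.0136), and Omd, osteomodulin, falling (-0.39 ± 0.09, adjusted p = 0.0252). Of 11 chondrogenic genes 3 rose, Col11a1, Prg4 (lubricin) and Comp, with slopes of 0.53, 0.40 and 0.38. Among 18 genes of adipogenic and Lepr stromal cells 2 rose and 3 fell. Cxcl12, the chemokine that retains blood stem cells in the marrow, was at 872, 441, 199 and 269.7 CPM in replicate 1 and 1012, 741 and 564 CPM in replicate 2 (-0.56 ± 0.11, adjusted p = 0.0149). It was highest at P1 in both series. Lepr, the leptin receptor of marrow stroma, was at 6.98, 11.3, 11.9 and 18.8 CPM in replicate 1 and 39.3, 79.3 and 68.9 CPM in replicate 2 (0.42 ± 0.09, adjusted p = 0.0172), with every library of replicate 2 above those of replicate 1. Lpl, lipoprotein lipase, fell by 0.63. Chondrogenic genes that rose numbered 1 without P1 of replicate 1 and 5 without P4. Adipogenic and Lepr stromal genes that fell numbered 0 without P1 of replicate 1, 1 without P1 or P3 of replicate 2 and 6 without P4.

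Collagen genes rose more often than they fell. Of 38 tested, 14 rose, 9 of them steadily, and 2 fell, against 11.4% and 10.8% of all genes. Col15a1, of the basement membrane zone, was at 26.6, 43.5, 74.9 and 138 CPM from P1 to P4 in replicate 1 and 17.9, 23.6 and 42.3 CPM from P1 to P3 in replicate 2. Every step was up in both series, with a small error (0.75 ± 0.04, adjusted p = 0.00181). Col8a1, of vascular basement membranes, was at 38.8, 97.9, 164 and 162 CPM in replicate 1 and 58.8, 123 and 239.9 CPM in replicate 2 (0.80 ± 0.12, adjusted p = 0.00784). The basement membrane chains Col4a1 and Col4a2 rose steadily, with slopes of 0.18 and 0.23. The chains of the main fibrils were not called, Col1a1 at 466, 452, 583 and 640.5 CPM in replicate 1 and 618, 544 and 727 CPM in replicate 2 (0.16 ± 0.05, adjusted p = 0.0562) and Col3a1 at 731, 621, 656 and 1122 CPM in replicate 1 and 721, 487 and 448 CPM in replicate 2 (0.05 ± 0.11, adjusted p = 0.765). Col3a1 was lower at P2 and P3 than at P1 in both series and higher at P4, and without P4 its slope had the opposite sign. Col14a1 and Col6a6 fell by 1.28 and 0.94. Collagen genes that rose numbered 3 without P1 of replicate 1, 8 without P3 of replicate 2 and 9 without P1 of replicate 2.

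Matrix regulators were divided. Of 29 proteases and inhibitors, 7 rose and 6 fell (against 11.4% and 10.8% of all genes tested). The inhibitors Timp1 and Timp3 rose, Timp1 at 32.3, 112, 204 and 175 CPM in replicate 1 and 49.6, 90.2 and 149.7 CPM in replicate 2 (0.81 ± 0.15, adjusted p = 0.0137) and Timp3 at 1089.7, 4054, 6829 and 6051 CPM in replicate 1 and 762, 2147 and 3734 CPM in replicate 2 (0.92 ± 0.18, adjusted p = 0.0147). In both, P1 was the lowest passage of each series. The metalloproteinases Mmp13 and Mmp11 fell. Of 21 genes of elastic fibres and crosslinking 4 rose and 3 fell (5 fell by DESeq2), led by Ltbp2 (0.65 ± 0.10, adjusted p = 0.00811). Among 10 small proteoglycans 2 rose and 3 fell, with Ogn, osteoglycin, falling (-0.77 ± 0.15, adjusted p = 0.0150) and Prelp rising (0.76 ± 0.15, adjusted p = 0.0147). Proteases and inhibitors that rose numbered 1 without P1 of replicate 1 and 4 without P3 of replicate 2, and those that fell 0 without P1 of replicate 1 and 3 without P1 or P3 of replicate 2. Elastic fibre genes that rose numbered 0 without P1 of replicate 1 and 2 without P3 of replicate 2, and those that fell 0 without P1 of replicate 1, 1 without P3 of replicate 2 and 5 without P4. Small proteoglycans that fell numbered 0 without P1 of replicate 1 and 1 without P3 of replicate 2.

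Growth factor pathways showed single genes with large slopes and few shared directions. Of 34 TGF-beta and BMP genes 7 rose and 3 fell (against 11.4% and 10.8% of all genes tested). The ligand gene Bmp4 was at 3.93, 10.2, 11.9 and 15.8 CPM in replicate 1 and 6.75, 12.6 and 19.4 CPM in replicate 2 (0.64 ± 0.09, adjusted p = 0.00782), and the secreted BMP inhibitor Chrdl1 fell (-0.98 ± 0.19, adjusted p = 0.0135). Inhba, which encodes the activin A subunit, rose (0.61), while Fst, follistatin, the activin inhibitor, fell (-0.42). Of 31 Wnt genes 4 rose and 6 fell, against the same 11.4% and 10.8%. The receptor gene Fzd10 rose (1.07 ± 0.32, adjusted p = 0.0478, between 0.0686 and 2.08 CPM), and Rspo2, which enhances Wnt signalling, and the ligand gene Wnt16 fell (-0.99 and -0.86). Among 17 genes of the IGF axis 5 rose and 6 fell, also against 11.4% and 10.8%, with Igf2bp1, an RNA-binding protein of fetal tissues, rising (0.74 ± 0.12, adjusted p = 0.00999). TGF-beta and BMP genes that rose numbered 1 without P1 of replicate 1 and 4 without P2 of replicate 1 or P3 of replicate 2, and those that fell 0 without P1 of replicate 1, 1 without P3 of replicate 2 and 5 without P4. Wnt genes that rose numbered 0 without P1 of replicate 1, 1 without P1 or P3 of replicate 2 and 2 without P2 of replicate 2 or P3 of replicate 1, and those that fell 1 without P1 of replicate 1. IGF axis genes that rose numbered 0 without P1 of replicate 1 and 2 without P1 or P3 of replicate 2, and those that fell 0 without P1 of replicate 1 and 2 without P1 or P3 of replicate 2.

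Imprinted growth genes, whose transcripts in many tissues decline after birth, fell more often than they rose. Of 19 tested, 10 fell and 3 rose (against 10.8% and 11.4% of all genes tested). H19, a non-coding RNA, was at 936, 531, 142 and 183 CPM from P1 to P4 in replicate 1 and 760.0, 546 and 223 CPM from P1 to P3 in replicate 2. It fell (-0.87 ± 0.13, adjusted p = 0.00859), though not at every step. Igf2, its neighbour, which encodes insulin-like growth factor 2, was at 22.5, 15.6, 10.2 and 12.4 CPM in replicate 1 and 24.3, 18.8 and 13.6 CPM in replicate 2 (-0.34 ± 0.07, adjusted p = 0.0150). Plagl1, a zinc finger regulator of this network, and Dlk1, a membrane protein of progenitors, fell by 0.61 and 0.41. Nnat, neuronatin, moved the other way at 0.798, 1.56, 3.86 and 7.84 CPM in replicate 1 and 1.58, 1.59 and 4.19 CPM in replicate 2 (1.00 ± 0.12, adjusted p = 0.00525), up at every step. Imprinted genes that rose numbered 0 without P1 of replicate 1, and those that fell 0 without P1 of replicate 1 and 5 without P1 or P3 of replicate 2. Of 32 Hox genes, which carry positional identity, 2 rose and 6 fell, against the same shares. Hox genes that fell numbered 0 without P1 of replicate 1.

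**Figure D5:**
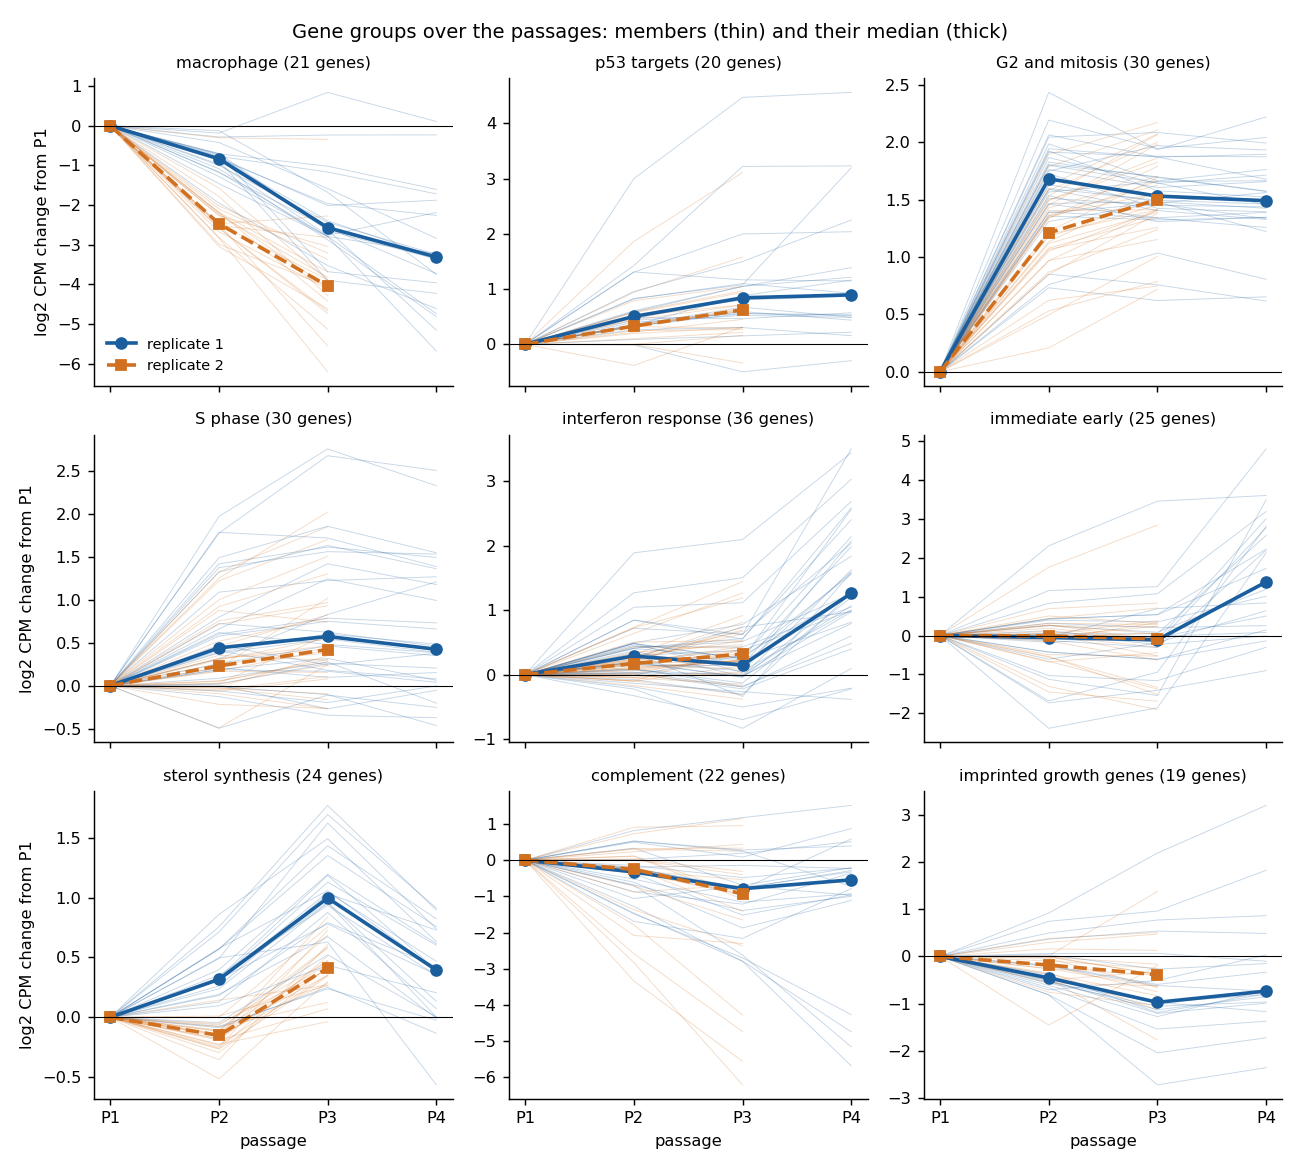
Level relative to P1 of the same series (log2 ratio of CPM) against passage for 9 gene groups. Thin lines are single genes, thick lines the group median, blue for replicate 1 and orange for replicate 2. The macrophage median falls to -3.31 at P4, and the interferon and immediate early medians rise mainly at P4. The mitotic median rises at P2, then stays level in replicate 1 and rises further at P3 in replicate 2.

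Interferon response genes rose, by the largest amount at P4. Of 36 tested, 22 rose (against 11.4% of all genes tested), 8 of them steadily, and 1 fell (4 without P4). Oas3, an oligoadenylate synthetase that senses viral RNA, was at 1.42, 5.42, 6.26 and 15.96 CPM from P1 to P4 in replicate 1 and 2.47, 4.15 and 6.82 CPM from P1 to P3 in replicate 2. It rose at every step (0.94 ± 0.12, adjusted p = 0.00582). Isg15, a ubiquitin-like modifier, was at 5.26, 7.01, 7.79 and 28.05 CPM in replicate 1 and 9.56, 11.7 and 15.3 CPM in replicate 2 (0.67 ± 0.13, adjusted p = 0.0150). In both, P4 was the highest library. Rsad2, viperin, was at 0.709, 1.32, 1.12 and 8.65 CPM in replicate 1 and 1.71, 1.59 and 1.90 CPM in replicate 2 (0.90 ± 0.25, adjusted p = 0.0408), with a jump at P4. Without P4 Rsad2 was not called (0.178, adjusted p = 0.4435). Irf1 fell (-0.15 ± 0.03, adjusted p = 0.0141). Reads of Ifit3 and Ifit3b, which are closely similar copies, could be split by the counting, and the same holds for the Oas1 genes. The median of the list relative to P1 was 0.29, 0.15 and 1.26 log2 at P2, P3 and P4 of replicate 1 and 0.17 and 0.32 at P2 and P3 of replicate 2. Interferon response genes that rose numbered 1 without P1 of replicate 1, 11 without P4, 12 without P3 of replicate 2 and 14 without P1 of replicate 2 or P2 of either replicate.

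The interferon-stimulated response element is the known site through which these genes are induced. Its core was searched as GAAA, any 2 bases and GAAA again, on either strand, in the 250 bases before the start. The windows of Oas3 (chr5:120777660-120777909, minus strand) and Isg15 (chr4:156200819-156201068, minus strand) are shown, as steady members with the core in capitals, along the gene's strand, 5′ to 3′, from RefSeq on GRCm38.p6.
Oas3: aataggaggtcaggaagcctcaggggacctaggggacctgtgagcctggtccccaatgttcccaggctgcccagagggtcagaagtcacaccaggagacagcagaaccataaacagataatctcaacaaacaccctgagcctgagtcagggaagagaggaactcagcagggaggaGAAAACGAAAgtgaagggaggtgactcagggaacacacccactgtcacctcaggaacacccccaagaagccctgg
Isg15: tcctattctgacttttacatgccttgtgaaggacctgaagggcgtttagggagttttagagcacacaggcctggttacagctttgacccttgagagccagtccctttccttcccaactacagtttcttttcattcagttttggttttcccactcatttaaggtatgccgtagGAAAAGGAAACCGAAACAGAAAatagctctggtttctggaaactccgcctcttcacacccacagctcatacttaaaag
The core began 75 bases before the start of Oas3, and overlapping copies began 78, 72 and 66 bases before that of Isg15. Of the 25 interferon genes with a promoter in RefSeq, 12 (48%) held a core in this window, against 3.26% of the 11426 genes tested that had a promoter and 2.98% of all 32851 promoters. Of 13 genes of MHC class I with a promoter, 3 (23.1%) did. In expression, 5 of 15 MHC class I genes rose and 0 fell (11.4% of all genes tested rose). The median of the list relative to P1 was 0.04 log2 at P3 and 0.65 at P4 of replicate 1. Those that rose included Tap1, the peptide transporter (0.35 ± 0.05, adjusted p = 0.00716), and Nlrc5, the regulator of this gene class (0.46 ± 0.08, adjusted p = 0.0100). H2-Q6 and H2-T22 rose too, by 0.42 and 0.20, but were not called without P4 (0.16, adjusted p = 0.379, and 0.11, adjusted p = 0.0628), and belong to a family of similar sequences whose reads may be shared. MHC class I genes that rose numbered 0 without P1 of replicate 1, 2 without P4 and 3 without P1 of replicate 2 or P2 of replicate 1 or P3 of replicate 2.

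Immediate early genes, which respond to stimuli within minutes, separated P4 from the other libraries. Of 25 tested, 7 rose and 0 fell (11.4% of all genes tested rose), and 7 fell without P4. Another 13 differed between passages with the linear trend not called (against 4.18% of all genes tested). Egr1 was at 47.8, 21.8, 16.3 and 539 CPM from P1 to P4 in replicate 1 and 42.5, 26.8 and 16.3 CPM from P1 to P3 in replicate 2. It was lower at each passage from P1 to P3 in both series and far higher at P4. Without P4 its slope was -0.74 log2 per passage (adjusted p = 0.00063). Fos was at 2.22, 5.02, 5.39 and 63.8 CPM in replicate 1 and 3.50, 4.18 and 4.12 CPM in replicate 2 (1.30 ± 0.30, adjusted p = 0.0236), and Junb at 22.4, 23.05, 23.1 and 134 CPM in replicate 1 and 20.9, 23.8 and 19.4 CPM in replicate 2. For both, P4 was the highest library, and without P4 neither was called (slopes of 0.36 and -0.015). Ccn1, a secreted matrix protein like Ccn2, was at 137, 184, 200.1 and 642 CPM in replicate 1 and 124, 200.5 and 222 CPM in replicate 2 (0.63 ± 0.11, adjusted p = 0.0120), and was called with and without P4. The gene groups that rose at P4 (immediate early, interferon response and MHC class I) rest there on that library alone. Immediate early genes that rose numbered 0 without P1 of replicate 1 and 4 without P4.

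The median level of sterol synthesis genes was highest at P3 in each series. Of 24 tested, 0 rose and 0 fell by the linear term over all 7 libraries, and 16 differed by the test of passage as a factor (4.18% of all genes tested did so with the trend not called). Without P4, 19 of the 24 rose, and over all libraries 5 rose by DESeq2 and 1 by limma. Fdps, which makes farnesyl diphosphate, was at 21.4, 30.1, 66.2 and 35.8 CPM from P1 to P4 in replicate 1 and 25.2, 22.5 and 45.05 CPM from P1 to P3 in replicate 2 (adjusted p = 0.0138 as a factor). P3 was the highest passage of both series. Msmo1, a methylsterol oxidase, was at 43.5, 73.6, 149 and 81.1 CPM in replicate 1 and 46.8, 39.4 and 77.5 CPM in replicate 2 (adjusted p = 0.0388 as a factor). The median of the list relative to P1 was 0.32, 1.00 and 0.40 log2 in replicate 1 and -0.15 and 0.41 in replicate 2. Of 30 genes of glycolysis and lactate, 10 rose and 1 fell (against 11.4% and 10.8% of all genes tested), with Ldha, lactate dehydrogenase, at 128, 152, 223 and 213 CPM in replicate 1 and 144, 149 and 194 CPM in replicate 2 (0.26 ± 0.05, adjusted p = 0.0131). It was higher at P3 than at P1 in both series. Pkm and Eno1, enzymes of the last steps of glycolysis, had slopes of 0.34 and 0.31. Of 15 mitochondrially encoded genes, 0 rose and 1 fell (mt-Nd3, -0.54 ± 0.06, adjusted p = 0.00525), and 4 fell by DESeq2. Glycolysis and lactate genes that rose numbered 0 without P1 of replicate 1 or P3 of replicate 2 and 5 without P1 of replicate 2.

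The MSC libraries of the series were made in batch c, as was replicate 2, which allowed a comparison within that batch on genes chosen in replicate 1. According to the study's methods, the MSC came from another mouse line (Osx-Cre with the tdTomato reporter) and grew in a mesenchymal medium (MesenCult), not EGM-2. Cell type, mouse line and medium cannot be told apart in this comparison. Levels here are scaled over the batch c libraries alone. Of the 543 genes that rose through replicate 1, both MSC libraries were above all of P1, P2 and P3 of replicate 2 in 38.5%, against 32% of all genes tested, and below all of them in 23%, against 33.6%. Of the 391 genes that fell, both were above in 14.8% and below in 42.7%. Ccn2 was at 2040.4 and 2134 CPM in the MSC libraries, and C1qb at 0 in both. The pair was uneven: Cdh5 was at 7.89 and 151 CPM in it, the second far above the passaged BMEC libraries.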

How the data were processed

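RNA of the cultured cells was extracted with Trizol and made into libraries with a KAPA RNA HyperPrep kit. Per the labels and the study's methods, the authors aligned and quantified reads with STAR and Salmon in an nf-core pipeline on GRCm38 and summed transcripts to genes. The deposited gene counts are whole numbers; their rounding is not described. All columns were matched to samples (0 without a sample).

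The counts were fitted with edgeR 4.0.16 in R 4.3.3 (filterByExpr with a minimum count of 10 and a total of 15; TMM factors; quasi-likelihood test; Benjamini-Hochberg adjustment over 16690 of 44674 genes), with passage number as a linear term and batch, which is also the replicate number, as a block. The pairing comes from the batch label; across genes, deviations from the passage means of libraries with the same replicate number correlated at 0.489 (P1 and P2), 0.423 (P1 and P3) and 0.534 (P2 and P3). The fit was tested on simulated data. Other alternatives were limma 3.58.1 and DESeq2 1.42.0, other factors and filters, no block, all 15 libraries, and each library left out. Named genes were the 4 markers, the 12 largest steady slopes in each direction with at least 10 CPM in every library at the higher end (both P1 libraries, or both P3 and the P4 library) and no predicted name, and, from each of 36 lists, up to 4 called members with the largest slopes plus defining members. Further members of a list were named after their values were seen, and some genes that the rule names are not reported here. The members, lists and rules were chosen with earlier results of these data known. Identifiers of 16594 of the genes tested were found in GENCODE M21, and levels per kilobase use its exons. The level of 3 counts covers counting error only.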

Additional observations from a re-analysis of the deposited data

How the results depend on the processing

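The counts of genes rising and falling with passage stayed within 1.5 times of 1910 and 1797 with RLE factors, no filter on low counts, a filter of 50 counts, DESeq2 and limma, and so did the steady counts. Of the 750 steady rises, 92.1% were also steady rises with RLE factors, 93.1% with DESeq2 and 99.7% with limma. Without the replicate block, 1108 genes rose, 951 fell, 494 rose steadily, 466 fell steadily and 48 differed in any passage. With all 15 libraries sharing the estimate of spread, 135 rose, 206 fell, 82 rose steadily and 132 fell steadily. A slope of at least 0.5 left 489 rising and 290 falling. Without P4, 2028 rose and 1896 fell steadily, with fewer steps to meet by construction. Slopes differing between the series, 0 in the fit used, were called for 7 genes without a filter, 17 by DESeq2 and 2 without P4.

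With 1 library left out, the genes rising ranged from 42 to 2439, those falling from 47 to 2226, steady rises from 42 to 2028, steady falls from 46 to 1896, genes differing in any passage from 1142 to 5180 and slopes differing from 0 to 3. The lowest trend counts were those without P1 of replicate 1. There the median slope of the 750 steady rises was 0.28 against 0.32. These genes were chosen in the fit that also held the remaining libraries, so their kept slopes are no independent check. Without P4 the slopes of Col3a1 (-0.21, adjusted p = 0.0615), Egr1 (-0.74, 0.00063) and Junb (-0.015, 0.865) had the opposite sign, and with 1 library left out they ranged up to 0.17, 1.12 and 0.79. Emcn ranged from -0.15 (without P1 of replicate 1) to 0.13, and Trem2 from -0.65 to 0.16 (without P1 of replicate 2). The cause was not tested. The 7 libraries leave 4 residual degrees of freedom, and levels under 0.0825 CPM rest on fewer than 3 counts in every library.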

Other observations

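Markers of epithelial and mesothelial cells and of blood cells other than macrophages were low. Of 11 epithelial and mesothelial markers listed, 2 passed the filter on low counts: Krt19, a keratin of simple epithelia, and Msln, mesothelin. Both rose (11.4% of all genes tested did). Those that rose numbered 0 without P1 of replicate 1 and 1 without P1 or P3 of replicate 2. Krt19 was at 1.27, 2.05, 4.76 and 5.82 CPM in replicate 1 and 1.06, 1.86 and 3.50 CPM in replicate 2 (0.80 ± 0.09, adjusted p = 0.00498). It was up at each step. Msln was at 0.562, 1.02, 1.33 and 1.29 CPM in replicate 1 and 2.02, 3.35 and 5.69 CPM in replicate 2 (0.51 ± 0.12, adjusted p = 0.0227), with every library of replicate 2 above those of replicate 1. Mcpt8, a protease of basophils, was the marker of other blood cells that rose, at 0.0887, 0.873, 1.70 and 1.68 CPM in replicate 1 and 0.171, 0.0995 and 0.510 CPM in replicate 2 (1.02 ± 0.29, adjusted p = 0.0416).

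Chemokine genes moved both ways, with 4 of 18 tested rising and 3 falling (against 11.4% and 10.8% of all genes tested). Cxcl1, which attracts neutrophils, was at 0.709, 1.23, 1.64 and 3.98 CPM in replicate 1 and 0.411, 0.928 and 1.28 CPM in replicate 2 (0.80 ± 0.11, adjusted p = 0.00697). Its highest library was P4. Ccl9, which attracts myeloid cells, was at 5.53, 15.6, 23.2 and 22.5 CPM in replicate 1 and 9.67, 9.82 and 13.2 CPM in replicate 2 (0.51 ± 0.14, adjusted p = 0.0362). Among the Hox genes, Hoxc13 was at 6.27, 11.8, 15.8 and 15.5 CPM in replicate 1 and 3.19, 5.17 and 6.96 CPM in replicate 2 (0.46 ± 0.08, adjusted p = 0.0121) and Hoxa10 at 43.7, 27.1, 21.5 and 22.4 CPM in replicate 1 and 39.2, 31.8 and 29.01 CPM in replicate 2 (-0.30 ± 0.06, adjusted p = 0.0150). Both had their P1 libraries at one end of the range within each series, Hoxc13 at the low end and Hoxa10 at the high end. Chemokine genes that rose numbered 0 without P1 of replicate 1 and 2 without P2 of replicate 2, and those that fell 1 without P1 of either replicate.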
